A study of Mus musculus with 20 samples.

Results

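The 10 genes described here encode transcription factors, or proteins that bind them, which drive or limit the expression of cell cycle genes. They are the E2F factors E2f1, E2f2, E2f3, E2f6, E2f7 and E2f8, the E2F partner Tfdp2, the pocket protein Rb1, and Mybl2 and Foxm1. They were chosen by name, with earlier results of these data known. All 10 were found among the 48795 genes of the deposited table. They were also among the 15304 tested genes, whose mean log2 value reached that of 10 normalized counts.

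E2F factors other than the atypical E2f7 and E2f8 bind promoters, such as those of DNA replication genes, as dimers with a DP protein such as Tfdp2. In resting and early G1 cells the pocket proteins, of which Rb1 is the best known, hold activator E2F factors inactive until cyclin-dependent kinases phosphorylate them. E2f1, E2f2 and E2f3 are known as activators, whereas E2f6 and the atypical E2f7 and E2f8 are repressors, and E2f7 and E2f8 are themselves E2F targets that lower E2F output late in S phase. Mybl2 (B-Myb) and Foxm1 bind the MuvB core complex in turn and switch on genes of G2 and mitosis, and the same core joined to E2F4, DP and a pocket protein forms the DREAM repressor, whose assembly requires phosphorylation of LIN52 by the kinase DYRK1A. The embryonic heart grows by division of its cardiomyocytes and other cells, so transcripts of this network are readily detected there.

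RNA was sequenced from whole hearts of 20 mouse embryos at E13.5, each a separate library. WT hearts numbered 10 and came from littermates of the mutants, 5 hearts were Dp1Tyb and 5 were Dp1TybDyrk1a+/+/-, all on a C57BL/6J background. Dp1Tyb embryos carry the Dp(16Lipi-Zbtb21)1TybEmcf duplication, which adds an extra copy of the chromosome 16 genes from Lipi to Zbtb21, Dyrk1a among them. Dp1TybDyrk1a+/+/- embryos carry the same duplication and the null allele Dyrk1atm1Mla on the same chromosome, which leaves a pair of functional Dyrk1a alleles, and this strain descends from a single pup with the crossover. The paper kept Dp1TybDyrk1a+/+/- mice as a separate strain, with WT littermates as controls. The labels give no litter, sex or pooling, so which WT hearts belong to which strain is not given. The WT hearts were therefore kept together as 1 group of 10. In the order of the series, WT replicates 1 to 5 precede the Dp1Tyb hearts and replicates 6 to 10 follow them. A difference between these sets of WT hearts was not tested.

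The values are log2 normalized counts. The transformation is not named in the sources used here, and low values lie as close to the gene's mean as a regularized log would put them. Such a log draws fold changes towards 0, so folds, percent changes and normalized counts are those of this scale. Dyrk1a had a mean of 11.37 ± 0.044 (SD, n = 10) in WT, 11.69 ± 0.040 (n = 5) in Dp1Tyb and 11.76 ± 0.056 (n = 5) in Dp1TybDyrk1a+/+/- hearts, 1.25-fold and 1.31-fold higher than in WT on this scale. The null allele lacks internal exons and a total per gene also counts its transcripts, so this value does not check the null allele. Library depth is unknown, since read totals were not analysed here. The 8 cardiomyocyte genes examined, such as Myh6 and Tnnt2, were detected in every heart. The log2 of their summed normalized counts lay between 18.52 and 18.96. A single library stood apart. Dp1TybDyrk1a+/+/- replicate 2 was the highest or the lowest of the 20 hearts for 48.8% of the tested genes, whereas the other hearts ranged from 3.87% to 12.9%. The members' differences that include it and the counts of called genes are given also without it. Replicate numbers are names only, given in accession order. Lanes 3, 6 and 7 of the sequencer held 4, 4 and 2 WT, 2, 2 and 1 Dp1Tyb, and 1, 1 and 3 Dp1TybDyrk1a+/+/- hearts, and values within lanes are given beside the members' differences with an unadjusted P under 0.05. As these are whole hearts, fewer cells of a type and less RNA per cell cannot be told apart.

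None of the 10 genes lies on chromosome 16. In GRCm38.p6 they are E2f1 on the minus strand at chr2:154559400-154569892, Mybl2 at chr2:163054327-163084688, E2f2 at chr4:136172274-136196057, Foxm1 at chr6:128362994-128375886, E2f8 on the minus strand at chr7:48866429-48882073, Tfdp2 at chr9:96196246-96323646, E2f7 at chr10:110745439-110787384, E2f6 at chr12:16810909-16826752, E2f3 on the minus strand at chr13:29906575-29986064 and Rb1 on the minus strand at chr14:73192858-73325951.

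Because E2F factors regulate each other, the RefSeq promoter windows of the genes (GRCm38.p6, 250 bases before to 50 bases after a transcript start) were searched on both strands for 4 E2F words (TTCCCGC or TTGGCGC or TTCGCGC or TTGGCGGG) and for 2 words of the cell cycle homology region (CHR) bound by MuvB complexes (TTTGAA or TTCGAA). Words of the same class may overlap each other. Windows were found for 8 of the 10 genes, not for Foxm1 and Rb1. An E2F word was present in a window of 5 genes, E2f2, E2f3, E2f7, E2f8 and Mybl2, against 9.97% of the 27025 genes with a window. A CHR word was present for 3 genes, E2f2, E2f3 and E2f8, against 21.7% of all genes. The windows of E2f1, E2f6 and Tfdp2 held neither. Their transcript starts differ from the outer starts of these genes given above. The Tfdp2 windows lie inside the gene, at chr9:96258455-96258754 and chr9:96258998-96259297. The absence of a word therefore does not cover other starts of these genes. A match is only a run of letters and was not tested for binding. The 250 bases before the start are printed for the E2F genes with the most words, the repressor E2f7 (chr10:110745189-110745438, plus strand) and the activator E2f3 (chr13:29986064-29986313, minus strand), with the words in capitals.
E2f7: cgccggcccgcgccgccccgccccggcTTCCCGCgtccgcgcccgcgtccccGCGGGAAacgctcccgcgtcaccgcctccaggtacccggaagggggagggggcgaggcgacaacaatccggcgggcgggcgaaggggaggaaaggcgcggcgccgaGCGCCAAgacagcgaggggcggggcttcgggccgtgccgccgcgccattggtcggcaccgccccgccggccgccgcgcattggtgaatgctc
E2f3: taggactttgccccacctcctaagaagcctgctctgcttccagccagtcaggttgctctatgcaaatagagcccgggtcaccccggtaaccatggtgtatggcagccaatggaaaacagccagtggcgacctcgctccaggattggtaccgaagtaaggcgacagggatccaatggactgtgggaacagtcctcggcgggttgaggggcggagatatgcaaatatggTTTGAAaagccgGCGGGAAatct
The E2f7 stretch holds 3 E2F words, between positions -223 and -86 from the start, and no CHR word. In E2f3 a CHR word at positions -23 to -18 and an E2F word at -11 to -5 lie side by side, and a further E2F word, not printed, follows the start. Short stretches of 30 bases are printed for Mybl2 around its E2F word (chr2:163054609-163054638, plus strand), for E2f2 around the E2F word after its start (chr4:136172294-136172323, plus strand) and for E2f8 around its CHR word on the opposite strand (chr7:48881599-48881628, minus strand).
Mybl2: cgccgacgcacTTGGCGGGagataggaaag
E2f2: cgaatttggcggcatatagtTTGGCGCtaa
E2f8: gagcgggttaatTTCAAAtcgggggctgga

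In WT hearts the level per kilobase of exon was highest for Foxm1, at a geometric mean of 253 normalized counts per kb. E2f3 at 204 and E2f8 at 196 came next and their ranges over the 10 WT hearts overlapped. The activator E2f1 stood at 151, the repressor E2f6 at 102, Mybl2 at 88.0, Tfdp2 at 73.2 and E2f7 at 70.8, and of these neighbours only Tfdp2 and E2f7 overlapped. E2f2 at 57.4 and Rb1 at 48.2 were the lowest, and their ranges did not overlap. The exon lengths behind these levels are those of GENCODE M39, with all isoforms joined, and the order depends on them. Before division by length Rb1, at 582 normalized counts, was above E2f1 at 523, Mybl2 at 498 and E2f2 at 287, and below all other members.

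In Dp1Tyb compared to WT hearts, Foxm1 was the only gene of the 10 past an adjusted P of 0.05, and it decreased by 8.96% on the scale of the table. All 10 genes had a log2 fold change below 0, with a median of -0.0715, whereas 51.5% of all tested genes were below 0 and their median was -0.00187. E2f7, E2f8, Rb1 and Mybl2 had values of -0.14 to -0.09 that did not pass the threshold in this fit, and E2f1, E2f2, E2f3, E2f6 and Tfdp2 lay between -0.05 and -0.01. Of all tested genes, 3.08% were called in this comparison. An unadjusted P under 0.05 was found for 5 of the 10 genes, against 15.6% of all genes. This addresses whether the network changes with the whole duplication.

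**Figure D1:**
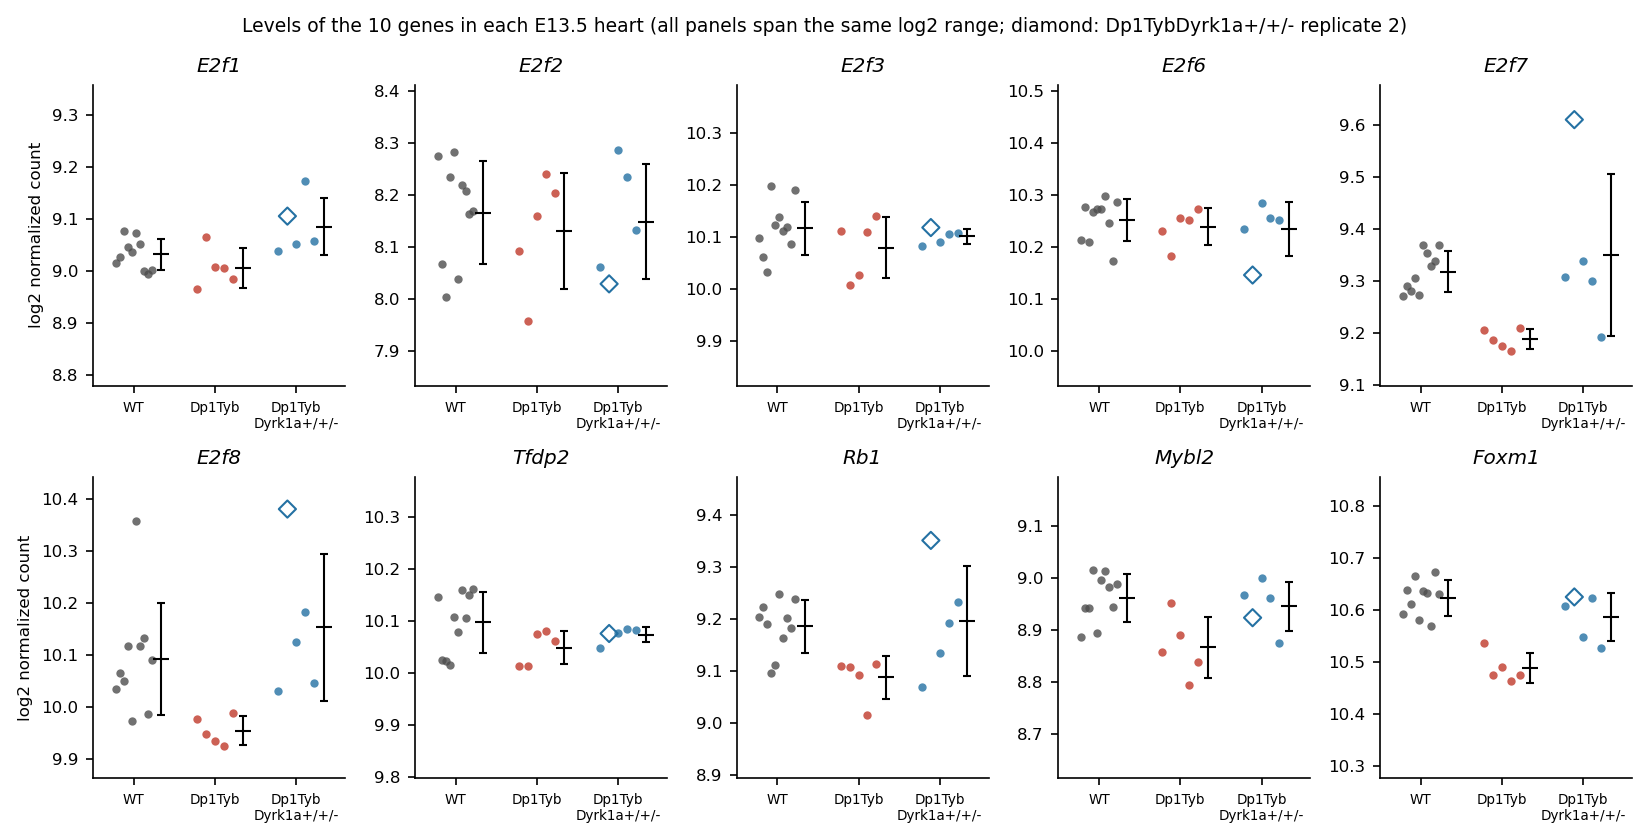
Log2 normalized count (y axis) of each of the 10 genes in every heart by genotype (x axis; 10 WT, 5 Dp1Tyb, 5 Dp1TybDyrk1a+/+/-). Points are hearts, the diamond is Dp1TybDyrk1a+/+/- replicate 2, bars are the mean ± SD, and every panel spans the same log2 range. The Dp1Tyb hearts lie below all WT hearts for Foxm1 and E2f7, and the diamond is the highest of all hearts for E2f7, E2f8 and Rb1.

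Foxm1 ran from 10.57 to 10.67 with a median of 10.63 in WT hearts. The Dp1Tyb hearts had 10.54, 10.47, 10.49, 10.46 and 10.47, and the Dp1TybDyrk1a+/+/- hearts 10.61, 10.63, 10.55, 10.62 and 10.53. Every Dp1Tyb heart was below every WT heart, whereas the Dp1TybDyrk1a+/+/- hearts spread across the gap and overlapped both. The Dp1Tyb mean of 10.49 ± 0.029 (SD, n = 5) was lower than the WT mean of 10.62 ± 0.035 (n = 10) by a log2 fold change of -0.14 ± 0.022 (SE), with a limma adjusted P of 0.00096. The exact two-sided permutation test over hearts gave P = 0.000333, which is the minimum over 3003 regroupings. The fold change was -0.18 in lane 3, -0.13 in lane 6 and -0.06 in lane 7, the last from a single Dp1Tyb heart. When any single heart was left out, the adjusted P stayed between 0.000419 and 0.00602.

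Foxm1 shares exon bases with Rhno1, a DNA damage response gene on the opposite strand, over 382 of its 6230 exon bases in GENCODE M39. Rhno1 also decreased in Dp1Tyb compared to WT hearts, with a log2 fold change of -0.09 ± 0.022 (SE) and a limma adjusted P of 0.037. The strand setting of the counting is not given in the sources used here, and without it reads from the shared bases cannot be told apart. The part of this overlap in the Foxm1 difference was not tested.

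The repressor E2f7 also had no overlap between Dp1Tyb and WT hearts, which makes 2 of the 10 genes whose Dp1Tyb hearts were all below WT, against 1.12% of all tested genes. WT hearts ranged from 9.27 to 9.37 with a median of 9.32. WT replicates 1 to 5 had 9.27, 9.29, 9.28, 9.30 and 9.27. WT replicates 6 to 10 had 9.37, 9.35, 9.33, 9.34 and 9.37 and did not overlap them. Dp1Tyb hearts had 9.21, 9.19, 9.17, 9.16 and 9.21, below both sets and nearer to the first. Dp1TybDyrk1a+/+/- hearts had 9.31, 9.61, 9.34, 9.30 and 9.19. The difference from each WT set was not tested, and in Foxm1, E2f8, Rb1 and Mybl2 these WT sets overlapped. Replicate 2 of Dp1TybDyrk1a+/+/- at 9.61 lay far above all other hearts, and replicate 5 of that group fell among the Dp1Tyb hearts. The log2 fold change of Dp1Tyb against WT was -0.13 ± 0.042 (SE), with a limma adjusted P of 0.112 and an exact permutation P of 0.000333. The values within lanes 3, 6 and 7 were -0.12, -0.13 and -0.14. Without Dp1TybDyrk1a+/+/- replicate 2, which is in neither group of this comparison but enters the shared estimate of the spread, the fold change was the same and the limma adjusted P was 0.00228.

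E2f8, the other atypical repressor, was at 9.98, 9.95, 9.93, 9.93 and 9.99 in Dp1Tyb hearts and between 9.97 and 10.36 in WT hearts, with a WT median of 10.08. The groups overlapped at their edge, and WT replicate 6 at 10.36 was well above the other WT hearts. The log2 fold change was -0.14 ± 0.054 (SE), with a limma adjusted P of 0.196 and an exact permutation P of 0.00966. Within lanes it was -0.10, -0.17 and -0.13. Without Dp1TybDyrk1a+/+/- replicate 2 the limma adjusted P was 0.0688. Without that heart and WT replicate 6 together, a choice made after seeing the data, the limma adjusted P was 0.0254 and E2f8 was called lower.

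Rb1 had values of 9.11, 9.11, 9.09, 9.02 and 9.11 in Dp1Tyb hearts and a range of 9.10 to 9.25 with a median of 9.20 in WT hearts. Dp1Tyb replicates 3 and 4 were below every WT heart, and the other Dp1Tyb hearts overlapped the WT range. The log2 fold change was -0.10 ± 0.036 (SE), with a limma adjusted P of 0.158 and an exact permutation P of 0.004. Within lanes it was -0.06, -0.13 and -0.11. Mybl2 had 8.86, 8.95, 8.89, 8.79 and 8.84 in Dp1Tyb hearts against 8.89 to 9.01 with a median of 8.96 in WT. Dp1Tyb replicates 1, 4 and 5 were below every WT heart, and replicates 2 and 3 lay inside the WT range. The log2 fold change was -0.09 ± 0.028 (SE), with a limma adjusted P of 0.080, an exact permutation P of 0.00599 and values of -0.08, -0.09 and -0.13 within lanes. Without Dp1TybDyrk1a+/+/- replicate 2 the limma adjusted P was 0.0451 for Rb1 and 0.0491 for Mybl2. Mybl2 also passed without Dp1Tyb replicate 2, at 0.0414.

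In all, 4 of the 10 genes, Foxm1, E2f7, Rb1 and Mybl2, were lower past the threshold in Dp1Tyb compared to WT hearts once Dp1TybDyrk1a+/+/- replicate 2 was left out, when 6.27% of all tested genes were called. Rb1 shares 488 exon bases with Rcbtb2 and 408 with Lpar6 on the opposite strand. These neighbours had log2 fold changes of -0.03 (limma adjusted P = 0.728) and -0.01 (adjusted P = 0.933) in Dp1Tyb compared to WT hearts. E2f8 shares 1128 exon bases with the weakly expressed non-coding gene Gm2788, at -0.03 (adjusted P = 0.539).

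**Figure D2:**
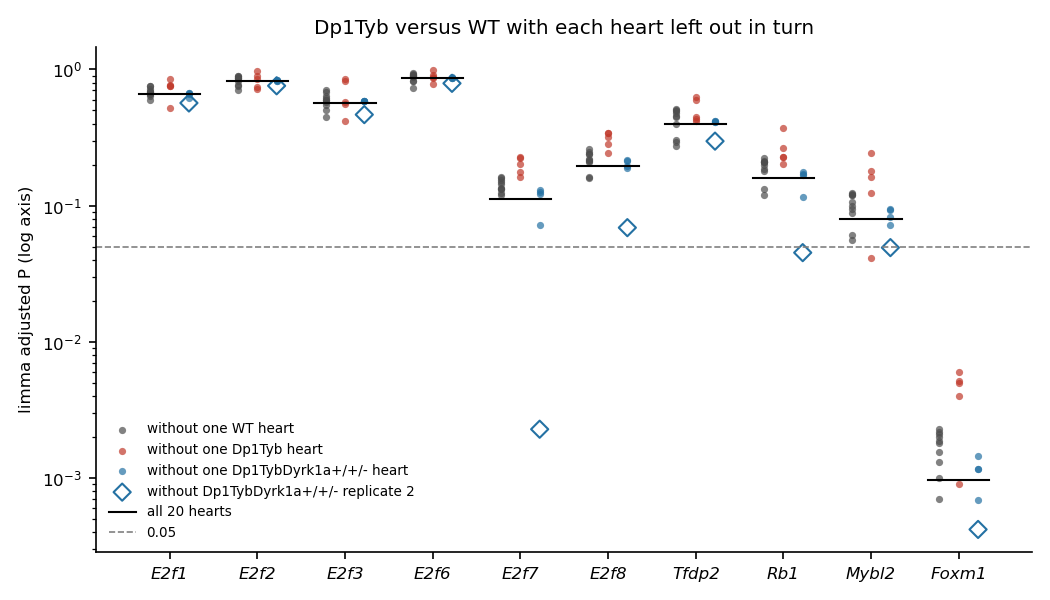
Limma adjusted P (log y axis) of each gene (x axis) in Dp1Tyb versus WT with each of the 20 hearts left out in turn. Black lines are the value with all hearts, points are single hearts left out by genotype, diamonds mark Dp1TybDyrk1a+/+/- replicate 2 left out and the dashed line is 0.05. Foxm1 stays under the line throughout, and E2f7 falls to 0.00228 at its diamond.

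For the activators the hearts of both groups overlapped. E2f1 ranged from 8.99 to 9.08 in WT and from 8.96 to 9.07 in Dp1Tyb hearts, with a log2 fold change of -0.03 and a 95% interval of -0.08 to 0.02. E2f3 had ranges of 10.03 to 10.20 and 10.01 to 10.14 and a fold change of -0.04 (-0.09 to 0.02). E2f2, whose SD of 0.098 in WT hearts was above that of every other member but E2f8, had ranges of 8.0 to 8.28 and 7.96 to 8.24 and a fold change of -0.04 (-0.15 to 0.08). The repressor E2f6, at -0.01 (-0.06 to 0.04), and the dimer partner Tfdp2, at -0.05 (-0.10 to 0.01), overlapped in the same way, and limma adjusted P for these 5 genes lay between 0.394 and 0.866.

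In Dp1TybDyrk1a+/+/- compared to WT hearts, which asks what the duplication does with a pair of functional Dyrk1a alleles, 0 of the 10 genes were called by limma, where 0.712% of all tested genes were. A single gene, E2f1, had an unadjusted P under 0.05, where 9.64% of all genes did, and none had without replicate 2, where 12.7% of all genes did. Log2 fold changes ran from -0.04 to 0.06, and 6 of the 10 were below 0, with a median of -0.0155 against -0.003 over all genes. Without replicate 2 the median was -0.0149 against -0.000833. This comparison shares its WT hearts with the one above.

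E2f1 had 9.04, 9.10, 9.05, 9.17 and 9.06 in Dp1TybDyrk1a+/+/- hearts, and 2 of these were above all WT hearts. The log2 fold change was 0.05 ± 0.024 (SE), with a limma adjusted P of 0.486 and an exact permutation P of 0.024. The difference was 0.11 in lane 7 and 0.01 in each of lanes 3 and 6, and 0.0475 over all lanes without replicate 2. Foxm1 was at -0.04 ± 0.022 (SE), with a limma adjusted P of 0.611 and a 95% interval of -0.08 to 0.01, and at -0.0469 without replicate 2.

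E2f8 had 10.03, 10.38, 10.13, 10.18 and 10.05 in Dp1TybDyrk1a+/+/- hearts, and Rb1 had 9.07, 9.35, 9.13, 9.19 and 9.23. In both genes replicate 2 was the highest of all 20 hearts, and the other 4 hearts lay within the WT range apart from the lowest Rb1 value. The log2 fold changes against WT were 0.06 for E2f8, 0.03 for E2f7 and 0.01 for Rb1. Without replicate 2 they were 0.00406, -0.0331 and -0.0278, and none of the 10 genes was called, where 0.908% of all genes were. Within lanes 3, 6 and 7 the E2f8 values were -0.04, -0.06 and 0.12, those of E2f7 -0.01, -0.11 and 0.07, and those of Rb1 -0.10, 0.04 and 0.01.

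In Dp1Tyb compared to Dp1TybDyrk1a+/+/- hearts, which differ in Dyrk1a and in strain, 9 of the 10 log2 fold changes were below 0 with a median of -0.079, against 0.00278 over all genes, and 0 of the 10 genes were called by limma, where 1.16% of all genes were. At an unadjusted P under 0.05 there were 6, all lower in Dp1Tyb hearts, namely E2f1, E2f7, E2f8, Rb1, Mybl2 and Foxm1, where 18.5% of all genes had such a P. Without replicate 2 all 10 fold changes were below 0 with a median of -0.0722, and the count called stayed at 0, where 1.31% of all genes were called. The unadjusted count was then 5, without Rb1, where 17.9% of all genes had such a P. The Dp1Tyb hearts are those of the first comparison, so the values are not independent of it.

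**Figure D3:**
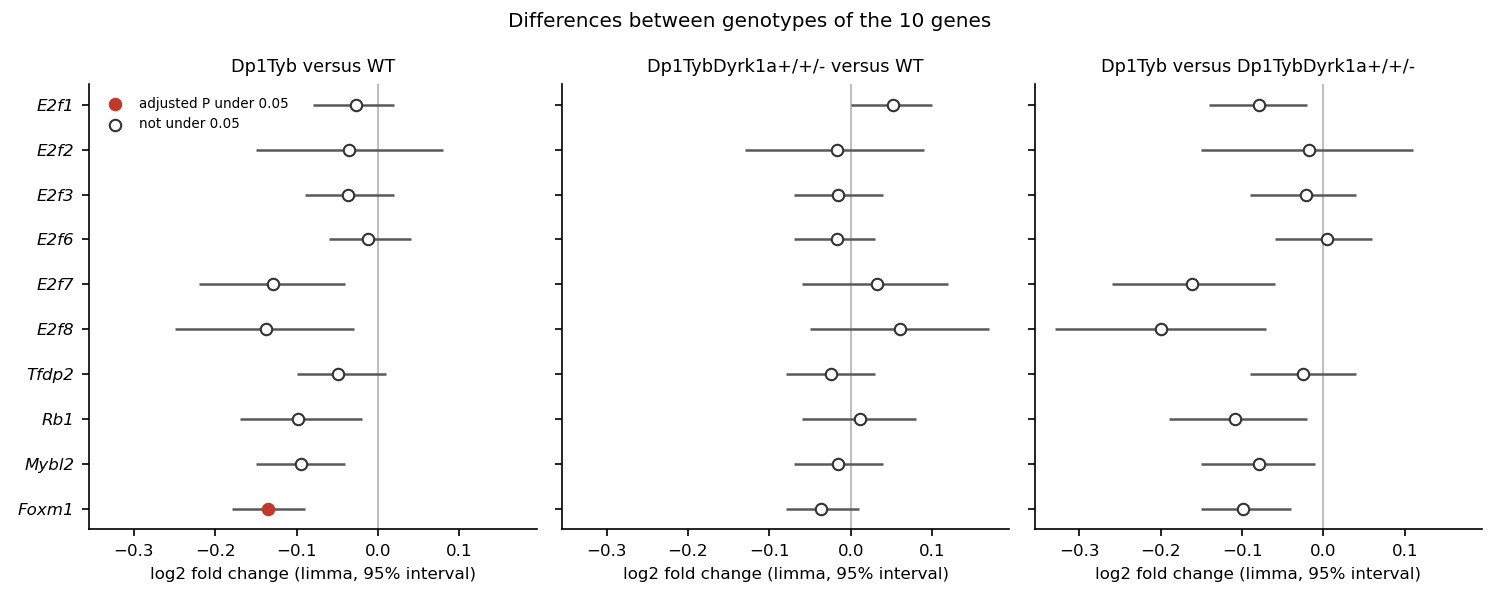
Log2 fold change (x axis) of each gene (y axis) in the 3 comparisons, with 95% intervals from limma as lines. The filled point is the only one with an adjusted P under 0.05, Foxm1 in Dp1Tyb versus WT, and the middle comparison has all its points between -0.04 and 0.06.

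E2f8 was at -0.20 ± 0.062 (SE), with a limma adjusted P of 0.104. Each Dp1Tyb heart was below each Dp1TybDyrk1a+/+/- heart, a separation that 3.55% of all genes had in this direction. The exact permutation P was 0.00794, the minimum over 252 regroupings. Within lanes 3, 6 and 7 it was -0.06, -0.12 and -0.25. Without replicate 2 the difference was -0.142, with a limma adjusted P of 0.181.

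Foxm1 was at -0.10 ± 0.026 (SE), with a limma adjusted P of 0.0598 and an exact permutation P of 0.0159. Dp1Tyb replicate 1 at 10.54 overlapped Dp1TybDyrk1a+/+/- replicate 5 at 10.53, and no other Dp1Tyb heart did. Values within lanes were -0.13, -0.05 and -0.06. It was just past the threshold with a stricter filter on low values and with hearts centred on their medians, and without replicate 2 it was at -0.0886, with an adjusted P of 0.0891. It was not called with lane as a covariate or in a fit of these groups alone. Its limma adjusted P ran from 0.0464 to 0.13 with each heart left out, and from 0.0228 to 0.193 over the other alternatives.

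E2f7 was at -0.16 ± 0.049 (SE), with a limma adjusted P of 0.0978, and at -0.0963 without replicate 2, with 0.0987. Its values within lanes 3, 6 and 7 were -0.11, -0.02 and -0.21. Rb1 was at -0.11 (limma adjusted P = 0.165), and without replicate 2 at -0.0702 (0.299). Within lanes Rb1 did not keep its direction, with 0.04, -0.18 and -0.12. E2f1 was at -0.08 (limma adjusted P = 0.135), with -0.01, -0.05 and -0.14 within lanes, and at -0.0741 without replicate 2. Mybl2 was at -0.08 (limma adjusted P = 0.204), with -0.07, -0.03 and -0.10 within lanes, and at -0.0841 without replicate 2. E2f2, E2f3, E2f6 and Tfdp2 lay between -0.02 and 0.00 with overlapping hearts, and between -0.0478 and -0.017 without replicate 2.

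The genes these factors act on were followed in lists of well-known targets. The lists were chosen with earlier results of these data known, so their counts are not an independent test. Of 40 G1/S genes known as E2F targets, all of them tested, Dp1Tyb hearts had 8 decreased and 0 increased against WT, and 37 were below 0 with a median of -0.0718. Of all tested genes 1.27% were called lower, 1.81% higher and 51.5% were below 0, with a median of -0.00187. Ccna2, which encodes cyclin A2, was at -0.16 ± 0.031 (SE, limma adjusted P = 0.00577). The replication initiation factor Mcm10 was at -0.13 (0.00852), the ribonucleotide reductase subunit Rrm1 at -0.11 (0.0162) and the checkpoint kinase Chek1 at -0.11 (0.0167).

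Of 35 G2/M genes of the kind Mybl2 and Foxm1 regulate, 9 decreased and 0 increased in the same comparison, and all 35 were below 0 with a median of -0.0925, beside the same 1.27% called lower and 51.5% below 0 over all genes. The spindle checkpoint kinase Bub1 was at -0.11 ± 0.020 (SE, limma adjusted P = 0.00207), the spindle motor Kif11 at -0.15 (0.00447), and Prc1 and Racgap1, which act in cytokinesis, at -0.15 (0.00554) and -0.11 (0.00675). Dp1TybDyrk1a+/+/- replicate 2 was the highest of all hearts for 16 of the 35 G2/M genes and the lowest for 6. Without it the called genes in Dp1Tyb compared to WT hearts numbered 15 of 40 and 21 of 35, all lower, where 2.95% of all genes were called lower. Without Dp1Tyb replicate 3 they numbered 2 and 5, without Dp1Tyb replicate 1 the G1/S count was 3, and without WT replicate 3 or Dp1Tyb replicate 4 it was 5. Calls over all genes fell too, from 3.08% with all hearts to 1.74%, 1.98%, 2.48% and 1.91% in these fits, in the same order.

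In Dp1TybDyrk1a+/+/- compared to WT hearts 0 genes of either list were called by limma, and the medians were 0.00276 for G1/S and 0.0172 for G2/M genes, where 0.0849% of all genes were called lower and 0.627% higher. Without replicate 2 the counts stayed at 0 and the medians were 0.0145 and 0.00265. In Dp1Tyb compared to Dp1TybDyrk1a+/+/- hearts 6 G1/S and 8 G2/M genes were called, all lower, with medians of -0.0835 and -0.114, where 0.738% of all genes were called lower. Without replicate 2 they numbered 9 and 8, with medians of -0.098 and -0.106, where 0.863% of all genes were called lower. Named among them were Ccna2 at -0.18 (limma adjusted P = 0.0231), Pola1 at -0.13 (0.0304) and Pcna at -0.13 (0.0304). Among G2/M genes they were Bub1 at -0.15 (limma adjusted P = 0.00671), Prc1 at -0.18 (0.0186), Kif11 at -0.17 (0.0207) and Birc5 at -0.14 (0.0304), and the genes named here for both lists were called without replicate 2 as well. The counts of 6 and 8 fell to 0 and 1 with lane as a covariate and to 0 and 0 in a fit of these groups alone, and to 0 and 1 without Dp1Tyb replicate 3. Calls over all genes fell too, from 1.16% to 0.189%, 0.0196% and 0.196% in these fits.

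**Figure D4:**
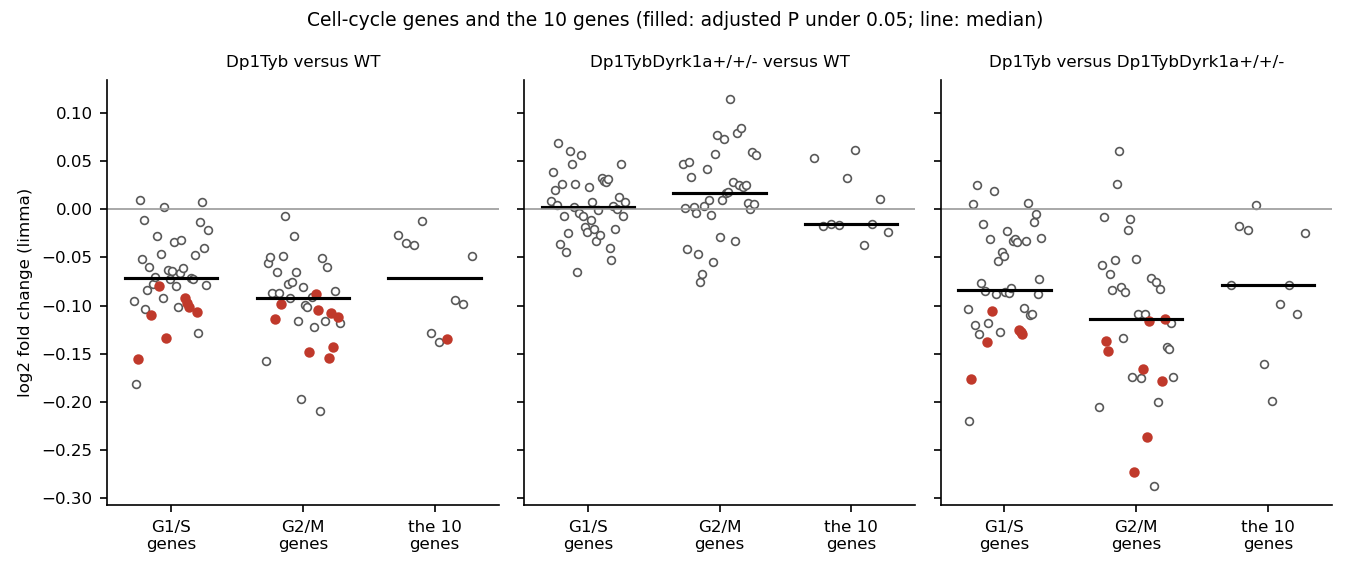
Log2 fold change (y axis) of each tested G1/S gene (40), G2/M gene (35) and of the 10 genes described here in the 3 comparisons. Filled points have a limma adjusted P under 0.05 and lines are medians, which lie below 0 for both lists in the outer panels and near 0 in the middle one.

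Of 9 partners of these factors found in the table, only Rbl1 (p107), a pocket protein like Rb1 and an E2F target itself, was called by limma. It decreased in Dp1Tyb compared to WT hearts, at -0.12 ± 0.017 (SE, adjusted P = 0.000158), and was lower than in Dp1TybDyrk1a+/+/- hearts at -0.15 ± 0.020 (adjusted P = 0.00173). Without replicate 2 the latter was -0.142 (limma adjusted P = 0.0019). In a fit of these groups alone, where 0.0196% of all genes were called, Rbl1 was not called, at a limma adjusted P of 0.0963. With all hearts, 3.08% of all genes were called in Dp1Tyb versus WT and 1.16% in Dp1Tyb versus Dp1TybDyrk1a+/+/-. In Dp1Tyb compared to WT hearts another pocket protein, Rbl2, was at -0.08 (limma adjusted P = 0.224), the MuvB subunit Lin9 at -0.08 (0.157) and Tfdp1, the main DP partner, at -0.03 (0.584). E2f4 at 0.04, E2f5 at 0.00, Lin37 at -0.01, Lin52 at -0.03 and Rbbp4 at 0.00 had limma adjusted P between 0.746 and 0.988.

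Of 11 tested regulators of pocket protein phosphorylation in G1, 2 inhibitors of cyclin-dependent kinases decreased in Dp1Tyb compared to WT hearts. Of all tested genes 1.27% were called lower in this comparison. Cdkn1b (p27) was at -0.16 ± 0.019 (SE, limma adjusted P = 2.36e-05) and Cdkn2c (p18) at -0.17 ± 0.037 (0.0121), and no heart overlapped in either. Such a separation in this direction was found for 1.12% of all tested genes. Without Dp1TybDyrk1a+/+/- replicate 2 the inhibitor Cdkn1c, at 0.14 (limma adjusted P = 0.0224), and the D-type cyclin Ccnd3, at 0.09 (0.047), were also called, both higher. They are named after their values were seen. The fit without replicate 2 called 6.27% of all tested genes. Cdkn1b was also lower in Dp1Tyb than in Dp1TybDyrk1a+/+/- hearts, at -0.16 (limma adjusted P = 0.00173), where 1.16% of all genes were called. It was not called in a fit of these groups alone (0.0963). Without replicate 2 Cdkn1b was at -0.144 (0.0019) and Cdkn2c was also called lower, at -0.16 (0.0324), where 1.31% of all genes were called. In Dp1TybDyrk1a+/+/- compared to WT hearts 0 regulators and 0 partners were called by limma, with or without replicate 2. Of all tested genes 0.712% were called, and 0.908% without replicate 2.

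The cell makeup of the hearts was followed with 8 lists of marker genes. No marker was called in any comparison by limma. All 7 fibroblast and mesenchyme markers were above 0 in Dp1Tyb compared to WT hearts, with a median of 0.0972, and all 7 were above 0 compared to Dp1TybDyrk1a+/+/- hearts, with a median of 0.0873. Of the 8 cardiomyocyte markers, 5 and 7 were below 0 in the same comparisons, with medians of -0.0398 and -0.0959. Without replicate 2 the median against Dp1TybDyrk1a+/+/- hearts was 0.145 for the fibroblast list and -0.0896 for the cardiomyocyte list, and still no marker was called. No marker of these lists was at 0 in all hearts. The log2 of the summed normalized counts of the fibroblast markers ran from 16.29 to 16.78 in WT hearts. These markers ran from 16.62 to 16.82 in Dp1Tyb and from 16.35 to 16.84 in Dp1TybDyrk1a+/+/- hearts. Their part in the differences of Foxm1 and the other genes was not tested.

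E2f2 varied with red blood cell genes. It had 8.09, 7.96, 8.16, 8.24 and 8.20 in Dp1Tyb and 8.06, 8.03, 8.29, 8.23 and 8.13 in Dp1TybDyrk1a+/+/- hearts, and hearts of every genotype were found at both ends. The log2 of the summed normalized counts was taken over 6 erythroid genes, among them the globins Hbb-y, Hbb-bt and Hba-a1 with Alas2 and Klf1. It ran from 15.37 to 17.74 in WT, from 16.48 to 17.67 in Dp1Tyb and from 16.22 to 17.67 in Dp1TybDyrk1a+/+/- hearts. No erythroid marker was at 0 in all hearts. Over the 20 hearts, with genotype means subtracted, Pearson's r was 0.85 and Spearman's rho 0.872. Each had a permutation P of 1e-05, the smallest that 100000 permutations can give, and an adjusted P of 0.0008 over 80 pairs of a gene and a marker list. Within WT, Dp1Tyb and Dp1TybDyrk1a+/+/- hearts r was 0.876, 0.948 and 0.776, and it was 0.849 without the 2 hearts farthest from the median and 0.883 without Dp1TybDyrk1a+/+/- replicate 2. No other pair had an adjusted permutation P under 0.05 for Pearson's r. For Spearman's rho 7 others had an adjusted permutation P of 0.0453 each. They are E2f3 with cardiomyocyte (0.674) and endothelial (0.719) markers, E2f6 with fibroblast (-0.648) and neural crest (-0.641) markers, and E2f8 with cardiomyocyte (0.642), endothelial (0.598) and macrophage (-0.659) markers, named after their values were seen. Without replicate 2 rho was -0.57 and -0.535 for the E2f6 pairs, and for the others it was 0.689, 0.742, 0.612, 0.604 and -0.651 in the same order.

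**Figure D5:**
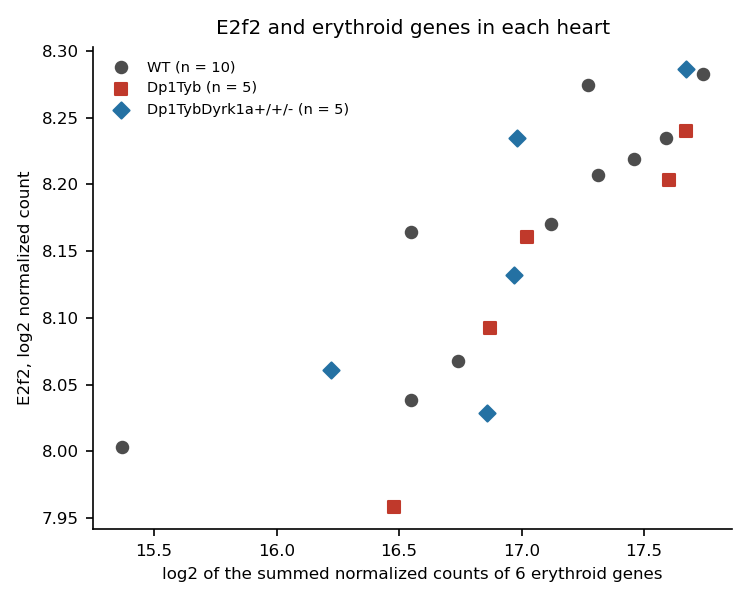
E2f2 (y axis, log2 normalized count) against the log2 of the summed normalized counts of 6 erythroid genes (x axis) in each of the 20 hearts, by genotype. The hearts of all 3 genotypes rise together from the lower left to the upper right.

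Among the genes whose level followed that of Foxm1 most closely over the 20 hearts, with genotype means subtracted, were Plk1 (Pearson's r = 0.729), a mitotic kinase, and Lig3 (0.719), a DNA ligase. They were picked as among the highest of all tested genes, so no P is given. Neither was called by limma in any comparison, and in Dp1Tyb compared to WT hearts Plk1 was at -0.06.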

How the data were processed

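Whole hearts were snap frozen, RNA was extracted with a Qiagen RNeasy kit, and KAPA mRNA HyperPrep libraries were run on an Illumina HiSeq, per the labels. For 48795 Ensembl genes and 20 hearts, the values deposited by the authors are log2-transformed normalized counts, scaled over all libraries together. The transformation is not named in the sources used here. The authors' processing notes to GEO name GRCm38, Trimmomatic 0.36, STAR 2.5.2a, RSEM 1.2.31, DESeq2 and DESeq, without roles. DESeq2 was not used here, as it needs counts. Instead, limma 3.58.1 in R 4.3.3 was fitted to the log2 values of 15304 genes. These are the genes whose mean log2 value reached that of 10 normalized counts. The fit used lmFit, then eBayes with a trend, with each genotype given its own mean and all 20 hearts sharing the spread. P was adjusted over all tested genes by Benjamini-Hochberg, and calls were made under 0.05. Exact permutation tests over hearts, 30 in all, were two-sided and are given unadjusted. Depth is unknown, so no counting interval is given, and precision rests on the spread between hearts. Low values lie close to the gene's mean, as a regularized log would give. If it is one, fold changes of every gene may be understated, those of weak genes most, and values turned back to counts or percent are not literal.

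Genes were named from GENCODE M39 for 44565 identifiers, and Lin54 matched none. Coordinates and promoters came from RefSeq (GRCm38.p6). The members and lists were chosen with earlier results of these data known. Named genes were the 10 members, all partners, Dyrk1a, up to 4 called genes a list, comparison and direction with the smallest P, and the 3 genes most like a called member. Some genes that this rule names are not reported here by name. Replicates are separate embryos. Alternatives were other filters, normalizations, weights, lane, fewer groups and each heart left out. Tables were made with pandas 2.3.3, numpy 2.4.6 and scipy 1.17.1 under Python 3.11.15.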

Additional observations from a re-analysis of the deposited data

Results flagged for a closer look

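Of 30 groups of values, 10 genes in 3 genotypes, 3 had a sample far from the others by Dixon's criterion, and chance gives such a sample in about 5% of groups. E2f8 in WT replicate 6 was at 10.36, the highest of its group, with a gap of 0.586 of the group's range against a critical value of 0.466. Rb1 in Dp1Tyb replicate 4 was at 9.02, the lowest of its group (0.793 against 0.71). Tfdp2 in Dp1TybDyrk1a+/+/- replicate 1 was at 10.05, the lowest of its group (0.755 against 0.71), although this group's values span a narrow range with an SD of 0.014.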

How the results depend on the processing

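Over the alternatives, Foxm1 was called lower in Dp1Tyb compared to WT hearts in every fit, and 0 members were called in Dp1TybDyrk1a+/+/- compared to WT hearts in every fit. Of 870 fold changes of single members under the alternatives, 823 kept their direction and side of the threshold, 22 newly passed it and 25 changed sign, none of these called. Members called in Dp1Tyb versus WT numbered 5 with hearts weighted by quality and 3 in a fit of the compared genotypes alone. They numbered 3 without both WT replicate 6 and Dp1TybDyrk1a+/+/- replicate 2, and 1 to 4 with each heart left out. Calls over all genes rose too in the first 3 of these fits, from 3.08% to 9.29%, 5.09% and 7.7%. In Dp1Tyb versus Dp1TybDyrk1a+/+/- they numbered 1 (Foxm1) with the filter raised to 100 normalized counts, 1 (Foxm1) with median centring, 3 with weights, 1 (E2f8) without both hearts and 0 to 2 with each heart left out, the 2 arising without WT replicate 6 and without Dp1TybDyrk1a+/+/- replicate 5. The first 4 of these fits called 2.4%, 1.47%, 8.15% and 3.96% of all genes against 1.16%. Without WT replicate 6 it was 2.64%, and without Dp1TybDyrk1a+/+/- replicate 5 it was 0.68%. The cause was not tested. Changed signs in Dp1TybDyrk1a+/+/- versus WT were E2f2 0.00504, E2f6 0.00825, E2f7 -0.0146 and Rb1 -0.018 with weights, Rb1 -0.00916 with lane as a covariate, and E2f6 0.00765, E2f7 -0.0274 and Rb1 -0.021 without both hearts. In Dp1Tyb versus Dp1TybDyrk1a+/+/- E2f6 was -0.00829 with median centring, -0.0172 with weights and -0.0179 without both hearts. With each heart left out the ranges that crossed 0 in Dp1Tyb versus WT were -0.0626 to 0.00789 for E2f2 and -0.0214 to 0.00151 for E2f6. In Dp1TybDyrk1a+/+/- versus WT they were -0.0519 to 0.0126 for E2f2, -0.0294 to 0.0053 for E2f6, -0.0331 to 0.0713 for E2f7, -0.0278 to 0.0425 for Rb1 and -0.0291 to 0.00189 for Mybl2. In Dp1Tyb versus Dp1TybDyrk1a+/+/- they were -0.0478 to 0.0253 for E2f2 and -0.0179 to 0.0183 for E2f6. Called list genes in Dp1Tyb versus WT ranged from 5 to 18 (G1/S), 7 to 26 (G2/M), 2 to 4 (regulators) and 1 to 2 (partners), and in Dp1Tyb versus Dp1TybDyrk1a+/+/- from 0 to 16, 0 to 24, 0 to 2 and 0 to 1. Over all genes these fits called 1.18% to 9.29% and 0.0196% to 8.15%. With each heart left out the G1/S and G2/M counts ranged from 2 to 15 and 5 to 21, and from 0 to 9 and 1 to 14. Calls over all genes then ranged from 1.74% to 6.27% and from 0.196% to 2.64%. No paired analysis was possible because the replicate numbers are only names in accession order. Depth is unknown, so limits of detection cannot be given.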
